A study of Mus musculus with 14 samples.

Results

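This account concerns the immediate early transcription factor genes, led by the nuclear receptor gene Nr4a3, in mouse fibroblasts without the Ptdsr gene (current symbol Jmjd6). The genes were the 10 symbols Nr4a1, Nr4a2, Nr4a3, Egr1, Fos, Fosb, Fosl1, Jun, Junb and Jund. Nr4a3 was selected on its measured log2 ratios, because these differed between the dye orientations of the arrays, and the other 9 genes were taken for their shared biology. Probes had to carry a value on at least 10 of 14 arrays. That left 7 probes of 6 genes among the 20355 probes of the table, which name 9930 genes, and all 7 were tested. Nr4a2, with 10 arrays, was just inside this limit and Junb, with 9, just outside. Another 4 probes, for Egr1, Fos, Junb and Jun, were measured on 7 to 9 arrays and are given as values only. No probe bears the symbol Jund.

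Immediate early genes are switched on within minutes of a stimulus such as serum, without new protein synthesis. Signals that reach the factors CREB and SRF start their transcription, and their own products then control later genes. The NR4A proteins are orphan nuclear receptors that act without a known hormone, binding DNA singly at the NGFI-B response element, and Nr4a1 and Nr4a2 proteins can also pair with retinoid X receptors. Fos and Jun family proteins pair through leucine zippers to form AP-1, which in fibroblasts drives growth and matrix protease genes, and Egr1 is a zinc finger factor of the same early wave.

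Each of the 14 two-colour arrays carried RNA of Ptdsr-/- fibroblasts in one dye and RNA of wt fibroblasts in the other. The knockout was labelled with Cy5 on 7 arrays, called Cy5 arrays here (replicates 1, 3, 4, 7, 8, 9 and 13), and with Cy3 on 7, called Cy3 arrays (replicates 2, 5, 6, 10, 11, 12 and 14). The series design speaks of 2 fibroblast cultures, but arrays are not linked to them in the labels, so the p-values below reflect the spread between arrays, which may be technical. The sources used here do not give growth conditions, passage, age of the animals or how the allele was deleted. The protocols also mention organs, for the RNA extraction, and a reference pool of control animals, although the other channel is labelled wt fibroblast.

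All values are log2 ratios of Ptdsr-/- over wt, centred on the median of each array. This direction is likely and not stated: a coded extreme repeated on each array was positive throughout the 7 Cy5 arrays and negative throughout the 7 Cy3 arrays. If the authors had not already turned the dye-swapped arrays, the difference between orientations given below would carry the knockout effect and the mean would carry the dye effect. Between 13165 and 19615 probes had a usable ratio on an array. The ratio of the targeted gene, Jmjd6, averaged -0.51 ± 1.14 (SD, n = 14) and lay below 0 on 12 of 14 arrays (limma, adjusted p = 0.895). Ratios carry no level, so whether fibroblast markers were present at all could not be checked. Of 22 tested probes for fibroblast markers 0 were called, with a median ratio of -0.04. Among 9 for macrophage and leukocyte markers Lyz2 alone was called (-1.47 ± 0.80, SD, n = 12; limma, adjusted p = 0.0454), 7 lay below 0 and the median was -0.40. The mean ratios of these 9 ran from -1.55 to 0.13. At an unadjusted p below 0.05, 3 of the 9 were lower and 0 higher, and 1 of the 22 fibroblast probes was lower and 0 higher. Over all tested probes 0.0324% were called, and 2.76% were lower and 2.3% higher unadjusted. Without 1 array in turn the Lyz2 call was lost in 11 of 14 fits. The part of these markers in the results below was not tested.

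The promoters of the 3 NR4A genes are shown because Nr4a3 is the lead gene and Nr4a2 and Nr4a1 are its closest relatives. They come from RefSeq (GRCm38.p6), cover 250 bases before and 50 after the annotated start on the gene's own strand, and have the core of the cAMP response element in capitals (TGACG, or CGTCA where it reads on the other strand). Nr4a3 lies at chr4:48045055-48045354 (+), Nr4a2 at chr2:57123954-57124253 (-) and Nr4a1 at chr15:101266596-101266895 (+).
Nr4a3: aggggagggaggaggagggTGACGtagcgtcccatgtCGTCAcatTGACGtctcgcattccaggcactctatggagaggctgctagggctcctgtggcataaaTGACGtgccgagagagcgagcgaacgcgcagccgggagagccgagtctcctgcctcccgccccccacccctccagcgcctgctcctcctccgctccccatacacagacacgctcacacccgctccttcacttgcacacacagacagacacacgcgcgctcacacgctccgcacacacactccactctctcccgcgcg
Nr4a2: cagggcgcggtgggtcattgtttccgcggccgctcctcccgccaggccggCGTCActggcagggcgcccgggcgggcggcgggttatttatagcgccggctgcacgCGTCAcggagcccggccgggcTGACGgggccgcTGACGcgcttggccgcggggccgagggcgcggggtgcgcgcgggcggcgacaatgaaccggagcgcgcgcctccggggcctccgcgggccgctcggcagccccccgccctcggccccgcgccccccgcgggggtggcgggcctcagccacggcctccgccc
Nr4a1: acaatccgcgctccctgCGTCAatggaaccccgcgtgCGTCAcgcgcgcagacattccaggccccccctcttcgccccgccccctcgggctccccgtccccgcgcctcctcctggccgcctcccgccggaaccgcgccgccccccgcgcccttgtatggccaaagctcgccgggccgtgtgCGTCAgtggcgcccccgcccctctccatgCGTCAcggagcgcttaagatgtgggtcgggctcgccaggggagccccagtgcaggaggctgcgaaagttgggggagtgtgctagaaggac

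Each of these 3 promoters holds 4 cores, counted on both strands. Of 32851 promoters of the same length 20.8% hold at least 1 core, 5.01% at least 2 and 0.231% at least 4. In Nr4a3 the sites begin at positions -231, -213, -205 and -147 from the start, and in Nr4a1 at -233, -213, -69 and -40. In Nr4a2 they begin at -200, -144, -123 and -111. The 3 genes thus share this feature, although their ratios did not follow one pattern. Promoters of 8 of the 10 genes were matched, with Egr1 and Fosl1 not among them. Fos had 2 cores, Fosb and Junb 1 each, and Jun and Jund 0. The full cAMP response element TGACGTCA, which contains the core and is found in 1.79% of all promoters, was found in none of the 8. Nor was the AP-1 site TGAGTCA or its reverse complement (5.20% of all promoters). The same holds for the NGFI-B response element AAAGGTCA (1.51%) and for the CArG box of SRF (1.63%). Sites outside this window were not looked for, so these genes may hold such sites elsewhere. A TATA box, read as TATAAA on either strand, was found in Fos, Junb and Nr4a2 and in 13.6% of all promoters.

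Nr4a3, also known as NOR-1, was measured by 1 probe on 13 arrays. On Cy5 arrays its log2 ratios were -1.06, -2.40, -1.33, -0.74, -1.23 and -1.28 on replicates 3, 4, 7, 8, 9 and 13. On Cy3 arrays they were 2.59, 2.85, 0.28, 2.64, 2.22, 1.69 and 1.82 on replicates 2, 5, 6, 10, 11, 12 and 14. All 6 values of the first orientation lay below 0 and all 7 of the second above it, and the groups did not overlap. The means were -1.34 ± 0.56 (SD, n = 6) on Cy5 arrays and 2.01 ± 0.88 (SD, n = 7) on Cy3 arrays. The difference of -3.35 (SE 0.42) corresponds to 10.2-fold between orientations. It was what Nr4a3 was chosen by and is given as a description. In the dye term of the fit, 1 of 18503 tested probes passed (0.0054%), which was Nr4a3 itself, and ranges failed to overlap for 125 probes (0.676%). Nothing is read from either count, since the gene was chosen by this contrast. Its adjusted p of 0.0222 in limma became 0.0584 with robust, trended eBayes, and 0.0933 and 0.291 with fixed and random blocks of replicate numbers. Without 1 array it was 0.0012 to 0.0943, with 11 of these 14 above 0.05. With ratios of small whole numbers missing it was 0.0752. After the subtraction of neighbours described below it was 0.632 (within 25 numbers) and 0.721 (within 10). It stayed lower than 0.05 uncentred (0.0186), with coded extremes kept (0.0459), with values on at least 4 arrays (0.0276) and with gene averages (0.00869).

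The opposite values nearly cancelled in the mean over both orientations. The model mean of Nr4a3, which weights the orientations equally, was 0.34 (SE 0.21), and it did not pass (limma, adjusted p = 0.895). In bulk RNA, fewer cells of a type and less RNA per cell could not be told apart, here or for the ratios that follow.

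Nr4a2, known as Nurr1 and required for midbrain dopamine neurons, was measured by 1 probe on 10 arrays. On Cy5 arrays its ratios were 2.00, -3.81, -3.06, -3.63 and 0.01 on replicates 1, 3, 4, 7 and 9. On Cy3 arrays they were 3.84, 2.47, 3.36, 1.09 and 1.44 on replicates 6, 10, 11, 12 and 14. The Cy3 values were all above 0, whereas the Cy5 values fell on both sides and replicate 1 overlapped with the Cy3 group. The means were -1.70 ± 2.58 (SD, n = 5) on Cy5 arrays and 2.44 ± 1.19 (SD, n = 5) on Cy3 arrays. The difference of -4.14 (SE 1.10) was second in size among all tested probes, where Nr4a3 ranked 17. With so wide a spread it did not pass the test of the dye term (limma, adjusted p = 0.461), and by its unadjusted p it ranked 116. The mean ratio of 0.37 (SE 0.55) did not pass either (adjusted p = 0.943).

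Nr4a1, known as Nur77, was the NR4A gene with a value on every array. Its ratios on Cy5 arrays were -0.83, -0.55, -0.62, 0.30, 0.15, -0.21 and 0.55 on replicates 1, 3, 4, 7, 8, 9 and 13. Those on Cy3 arrays were 0.62, -0.04, -0.05, -0.35, -0.84, -0.83 and -2.30 on replicates 2, 5, 6, 10, 11, 12 and 14. The orientations overlapped widely, and replicate 14 was the lowest array. The means were -0.17 ± 0.52 (SD, n = 7) on Cy5 arrays and -0.54 ± 0.93 (SD, n = 7) on Cy3 arrays. The difference of 0.37 (SE 0.40) has the opposite sign to those of Nr4a3 and Nr4a2 and was within the spread between arrays (limma, adjusted p = 0.852). Its overall mean was -0.36 (SE 0.20), below 0 on 10 of 14 arrays, and did not pass (adjusted p = 0.895).

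**Figure D1:**
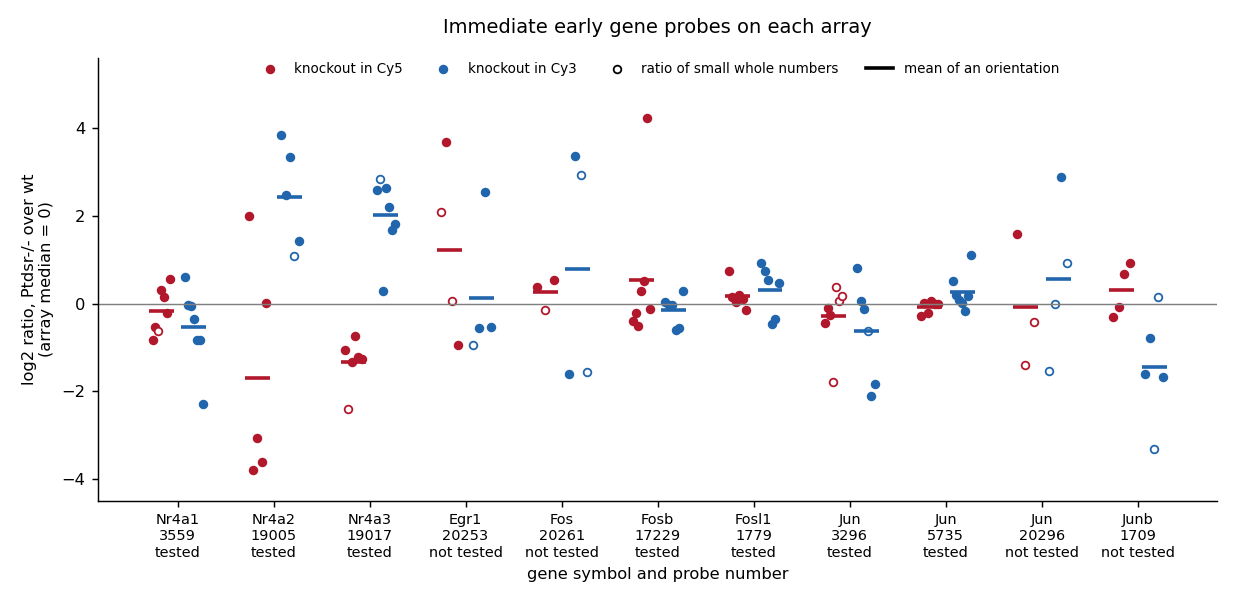
Log2 ratios of Ptdsr-/- over wt (vertical axis, array median at 0) for the 11 probes of the named genes, with Cy5 arrays (knockout in Cy5) in red on the left and Cy3 arrays in blue on the right of each probe. Points are arrays, open points are ratios of small whole numbers and lines are means. The Nr4a3 orientations stand apart (-2.40 to -0.74 on Cy5 arrays, 0.28 to 2.85 on Cy3 arrays), and those of the other probes overlap.

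Among the AP-1 genes, the Fos family members Fosb and Fosl1 were called neither for the mean ratio nor for the dye term. Fosb was measured on 13 arrays, with values of -0.41, -0.22, -0.51, 0.28, 0.51, 4.23 and -0.13 on replicates 1, 3, 4, 7, 8, 9 and 13, all Cy5 arrays. On Cy3 arrays it stood at 0.04, -0.03, -0.04, -0.59, -0.55 and 0.29 on replicates 5, 6, 10, 11, 12 and 14. Replicate 9 alone was far above the rest. The mean over all 13 arrays was 0.22 ± 1.25 (SD, n = 13), and without replicate 9 it was -0.11 ± 0.36 (SD, n = 12). Neither the mean ratio (limma, adjusted p = 0.952) nor the difference between orientations of 0.69 (SE 0.65, adjusted p = 0.825) passed.

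Fosl1, which encodes Fra-1, a Fos protein that lacks the strong activation domain of c-Fos, ranged from -0.15 to 0.74 on 6 Cy5 arrays and from -0.46 to 0.94 on 6 Cy3 arrays. It lay above 0 on 9 of 12 arrays, and the orientations overlapped. Its mean was 0.25 ± 0.45 (SD, n = 12), a 1.19-fold ratio that did not pass (limma, adjusted p = 0.895). The means of 0.18 ± 0.30 (SD, n = 6) on Cy5 arrays and 0.31 ± 0.58 (SD, n = 6) on Cy3 arrays differed by less than the spread between arrays (-0.13, SE 0.32).

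Jun, the main partner of Fos proteins, has 3 probes, and these disagreed. Probe 5735 was the steadiest of the tested probes, with values between -0.28 and 0.07 on 6 Cy5 arrays and between -0.18 and 1.11 on 7 Cy3 arrays. Replicate 14 held the highest value, and the next was 0.52. The mean was 0.11 ± 0.36 (SD, n = 13), or 0.03 ± 0.21 (SD, n = 12) without replicate 14.

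Probe 3296 of the same gene ranged from -1.80 to 0.38 on 7 Cy5 arrays and from -2.11 to 0.81 on 6 Cy3 arrays. Its lowest values fell on replicates 12 (-2.11), 14 (-1.83) and 7 (-1.80), so that on replicate 14 the 2 Jun probes lay on opposite sides of 0. The mean was -0.45 ± 0.91 (SD, n = 13). Neither probe passed for the mean ratio (limma, adjusted p = 0.895 for probe 3296 and 0.934 for probe 5735) or for the dye term (adjusted p = 0.891 and 0.776). Log2 values equal to a ratio of 2 whole numbers of at most 10, which dim spots would give, were counted for each probe. They made up 5 of 13 values of probe 3296 and 0 of 13 of probe 5735, against 13.4% to 31.4% of all values on an array. Nr4a3 had 2 of 13 such values, Nr4a2 1 of 10, Nr4a1 1 of 14, and Fosb and Fosl1 0 each. The 2 of Nr4a3 were its lowest value (-2.40, replicate 4) and its highest (2.85, replicate 5). With such ratios missing, the Nr4a3 difference between orientations was -3.00.

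The third Jun probe, 20296, and those of Fos, Egr1 and Junb were measured on too few arrays to be tested. Fos, which encodes c-Fos, the first known Fos protein of AP-1, had ratios of 0.39, -0.15 and 0.55 on replicates 1, 8 and 13 (Cy5 arrays). On Cy3 arrays it had -1.60, 3.37, 2.93 and -1.57 on replicates 2, 11, 12 and 14. The first group stayed near 0, and the second split into 2 high and 2 low arrays.

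Egr1 had ratios of 2.10, 3.69, 0.06 and -0.95 on replicates 3, 4, 9 and 13 (Cy5 arrays). On Cy3 arrays they were -0.95, -0.55, 2.55 and -0.54 on replicates 5, 6, 11 and 14. High values occurred in both groups. Jun probe 20296 ran from -1.40 to 1.58 on 3 Cy5 arrays and from -1.54 to 2.89 on 4 Cy3 arrays, and its value on replicate 8 was a coded extreme. Small whole-number ratios made up 3 of 7 values of Fos, 3 of 8 of Egr1 and 5 of 7 of this Jun probe. On replicate 11 Fos (3.37), Jun probe 20296 (2.89) and Egr1 (2.55) were all high.

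Junb, a Jun protein that activates more weakly than c-Jun, was at -0.31, -0.07, 0.69 and 0.93 on replicates 7, 8, 9 and 13 (Cy5 arrays). On Cy3 arrays it was at -1.60, -0.80, -3.32, 0.16 and -1.68 on replicates 2, 10, 11, 12 and 14. The Cy5 values centred near 0 and the Cy3 values lay mostly below it, opposite in sign to the Nr4a3 difference. The groups overlapped through replicate 12. On replicate 11 Junb was the lowest of the 9 arrays, where Fos and Egr1 were high. Small whole-number ratios made up 2 of 9 values of Junb, and these were the values on replicates 11 and 12.

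Over the 7 tested probes of these genes 0 were called for the mean ratio by limma, against 6 of 18503 in all (0.0324%). At an unadjusted p below 0.05 none was lower and none higher, against 2.76% and 2.3% of all probes. The median of the mean ratios was 0.19, beside 0.01 over all probes. For the dye term 0 of the 6 probes other than Nr4a3 were called, and 1 of them, Nr4a2, had an unadjusted p under 0.05, against 7.66% of all probes. The median difference between orientations over all 7 was -0.13, and -0.01 over all probes, most of which lay between -1.62 and 1.29.

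**Figure D2:**
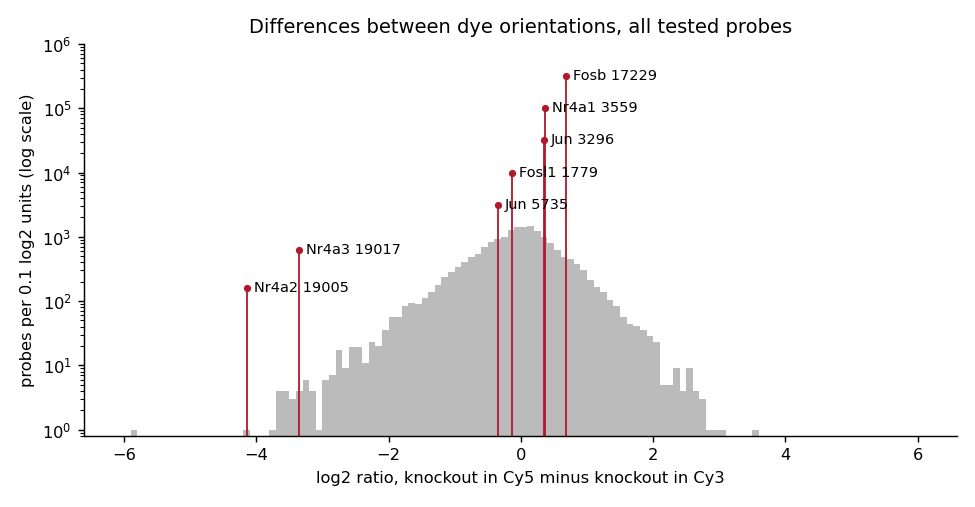
Number of probes (log scale) by the difference in log2 ratio between Cy5 arrays and Cy3 arrays, over 18503 tested probes, with the 7 tested immediate early probes as red stems whose heights carry no value. Nr4a2 (-4.14) and Nr4a3 (-3.35) stand far to the left, and the other 5 lie between -0.35 and 0.69.

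The probes of Nr4a3 and Nr4a2 have nearby numbers in the table, 19017 and 19005, in a stretch rich in nuclear receptor genes. Of the 28 tested probes within 25 numbers of Nr4a3, 26 had a negative difference between orientations and 18 lay below -1. Over all tested probes 50.6% were negative and 8.19% lay below -1. The median of the 28 was -1.33, and the lowest 1% of such window medians over all probes lay below -0.96.

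Other genes within 25 numbers shared the sign of Nr4a3. Elk1, described below, had a difference of -3.40, slightly larger in size than that of Nr4a3 (-3.35). H2-M3, a nonclassical histocompatibility gene, had a difference of -3.17, the cytokine gene Il4 of -2.47 and the caspase gene Casp4 of -2.21. Receptor genes there included Esr1 (oestrogen receptor alpha, -2.73), Nr2e1 (-1.76), Vdr (vitamin D receptor, -1.52) and Hnf4g (-1.49). The serotonin receptor gene Htr7 (0.95) and the xenobiotic receptor gene Nr1i2 (0.46) were the 2 exceptions among these 28. These names were chosen after their values were seen.

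The stretch had visible ends. The 41 tested probes numbered 18973 to 19056 had a median difference of -1.41, and 37 were negative, while the median was -0.04 over 20 tested probes in the 50 numbers before and -0.03 over 32 in the 50 after. These bounds were set after the values were seen, and the rule itself favours medians nearer 0 just outside them. Whether probe numbers follow the position on the slide, the printing plate or the clone source cannot be read from the sources used here, so the part of each in the Nr4a3 difference was not tested. The neighbours of Nr4a2, an overlapping set, had a median of -1.33, and those of the other 5 tested probes had medians between -0.24 and 0.24.

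**Figure D3:**
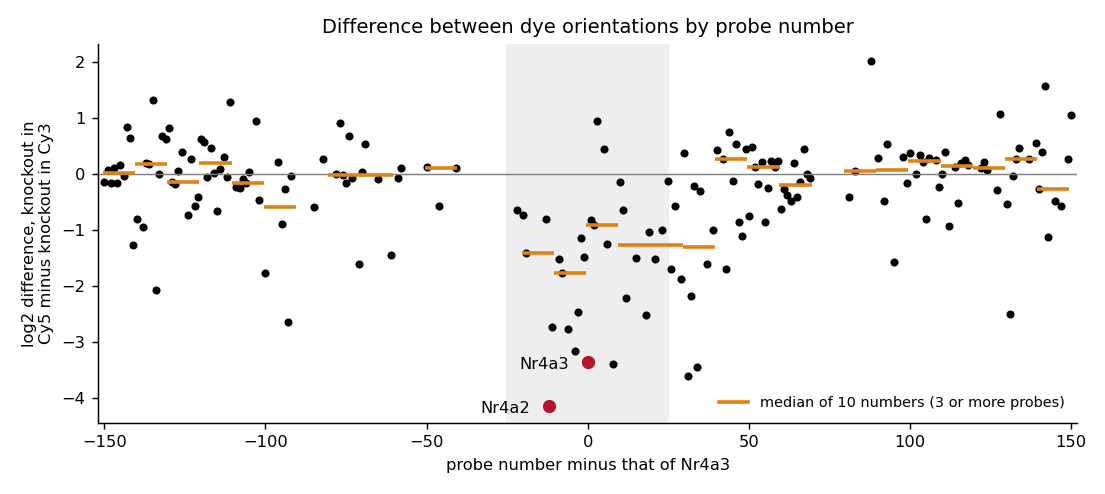
Difference in log2 ratio, Cy5 arrays minus Cy3 arrays (vertical axis), for tested probes by their number relative to Nr4a3 (horizontal axis), with the 25 numbers on either side shaded and medians of 10 numbers as orange lines. Nr4a3 (-3.35) and Nr4a2 (-4.14) lie at the low edge of a stretch whose 28 probes in the shaded window have a median of -1.33. Beyond both ends of the stretch the orange lines lie between -0.58 and 0.28.

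Array by array, the neighbours moved with Nr4a3 by orientation but less far. On Cy5 arrays the median of the neighbours was 1.70, -0.35, 0.23, -1.63, -0.76, -0.90 and -0.54 on replicates 1, 3, 4, 7, 8, 9 and 13. On Cy3 arrays it was 0.04, 0.51, 0.07, 0.98, 1.26, 1.09 and 0.60 on replicates 2, 5, 6, 10, 11, 12 and 14. On replicates 7 and 8 the neighbours were slightly lower than Nr4a3, whereas on replicates 2, 4 and 5 they were far closer to 0 than Nr4a3. On replicate 4 the neighbours (0.23) and Nr4a3 (-2.40) lay on opposite sides of 0. Replicate 1 went the other way for the neighbours (1.70) and for Nr4a2 (2.00), and Nr4a3 had no value there.

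When the median of the neighbours was subtracted on each array, Nr4a3 averaged -0.68 ± 1.04 (SD, n = 6) on Cy5 arrays and 1.36 ± 0.87 (SD, n = 7) on Cy3 arrays. The values lay below 0 on 4 of 6 arrays and above 0 on 7 of 7, and the groups overlapped by replicate 7 (0.30) and replicate 6 (0.21). The difference was -2.04, and with neighbours within 10 numbers it was -1.67, where it had been -3.35. Treating all probes in this way left 0 of 18503 probes called for the dye term by limma, and 1297 with an unadjusted p under 0.05. Without the subtraction 1 was called and 1417 had an unadjusted p under 0.05. This setting was chosen after the values were seen. Nr4a2 then averaged -1.47 ± 2.05 (SD, n = 5) on Cy5 arrays and 1.69 ± 1.31 (SD, n = 5) on Cy3 arrays.

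**Figure D4:**
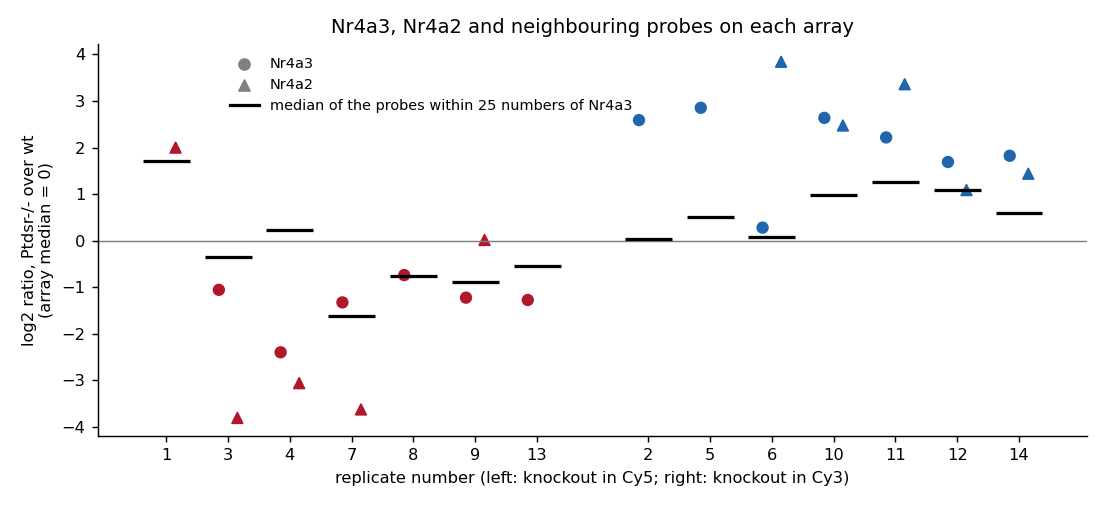
Log2 ratio of Ptdsr-/- over wt (vertical axis) for Nr4a3 (circles), Nr4a2 (triangles) and the median of the probes within 25 numbers of Nr4a3 (black lines) on each array, with Cy5 arrays on the left in red and Cy3 arrays on the right in blue. The neighbour median is below 0 on 5 of 7 arrays on the left and above 0 on 7 of 7 on the right.

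Probes whose ratios over the arrays were most like those of Nr4a3 were sought by Pearson correlation among 8974 named probes sharing at least 12 arrays, as a description. All arrays fall into 2 dye orientations, so a high value reflects mostly the difference between these. The 5 genes were Prm1 (protamine of sperm, r = 0.90 over 13 arrays), Oas1b (0.89 over 12), Ss18 (0.87 over 12), Fam122c (0.86 over 12) and Rnps1 (0.84 over 13). Within Cy5 arrays r was 0.64, 0.81, -0.43, 0.93 and 0.86 in the same order, over 6 arrays each. On Cy3 arrays it was 0.48, 0.35, 0.66, 0.89 and 0.04, over 6 or 7. Only Fam122c, among these 5, was above 0.8 in both. The neighbours of these 5 probes by number had median differences from -1.48 for Oas1b to -0.24 for Prm1. Over all probes the median of such window medians was 0.01, and the lowest 1% lay below -0.96. Ss18 (probe 4861, -0.97) and Rnps1 (probe 4855, -0.93) have nearby numbers, so their neighbours are largely the same probes. The 5 were chosen by likeness to a probe that differs between orientations, so nothing is read from their shared sign.

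The probes next to Nr4a3 in the strength of the dye term did not pass (limma, adjusted p = 0.0946 for the first 4 and 0.244 for the last). They were Zbtb39 at -1.53 ± 1.03 (SD, n = 7) on Cy5 arrays and 1.24 ± 0.59 (SD, n = 7) on Cy3 arrays, Ss18 with a difference of -2.84, an unnamed probe (7750) with -5.83, Pard6g with -2.61 and Aldh2 with -3.45. All 5 had the sign of Nr4a3. Aldh2, a mitochondrial aldehyde dehydrogenase gene, has the number 19051 and so belongs to the same stretch.

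Genes of related lists were then examined for the mean ratio, where 0.0324% of all tested probes were called and, with an unadjusted p under 0.05, 2.76% were lower and 2.3% higher. Of 22 tested probes for kinases and transcription factors upstream of the early response 0 were called by limma, with 1 higher and 2 lower with an unadjusted p under 0.05 and a median of 0.03. The smallest p values belonged to Prkacb, a catalytic subunit of protein kinase A, at -0.34 ± 0.37 (SD, n = 14), to Mapk9, the kinase JNK2 that phosphorylates Jun, at 1.23 ± 1.89 (SD, n = 10), and to Prkar1a, a regulatory subunit of protein kinase A, at -0.42 ± 0.42 (SD, n = 10). Each had an adjusted p of 0.895. Prkacb was below 0 on 11 of 14 arrays and Mapk9 above 0 on 8 of 10. Elk1, the ETS factor that binds with SRF at early promoters, lies 8 numbers from Nr4a3. It averaged -1.50 ± 1.63 (SD, n = 6) on Cy5 arrays and 1.90 ± 1.37 (SD, n = 7) on Cy3 arrays (limma, dye term, adjusted p = 0.306).

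Partners and coregulators of nuclear receptors had 10 tested probes, 0 called by limma, with 1 lower with an unadjusted p under 0.05 and a median of -0.01. Ncoa1, a steroid receptor coactivator, stood at -0.85 ± 0.85 (SD, n = 11), below 0 on 9 of 11 arrays (adjusted p = 0.895). Ncoa2, its relative, had 2 of the 3 smallest p values, with -0.16 ± 0.50 (SD, n = 14) for probe 19572 and 0.14 ± 1.39 (SD, n = 12) for probe 12960. A further Ncoa2 probe and that of Nr0b2 lie in the stretch around Nr4a3, with differences between orientations of -0.90 and -1.01.

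Other bZIP partners of AP-1 gave 11 tested probes, with 0 called by limma, 1 lower with an unadjusted p under 0.05 and a median of -0.06. Mafg, a small Maf protein without an activation domain, averaged -1.31 ± 1.61 (SD, n = 14) on probe 3510 and lay below 0 on 12 of 14 arrays, from -4.04 to 0.75. A second Mafg probe, 5225, averaged 0.23 ± 0.38 (SD, n = 14), so the probes of this gene differed in sign. Atf3, a stress-induced partner of Jun, averaged -0.43 ± 0.73 (SD, n = 14). Each of the 3 had an adjusted p of 0.895.

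Other early transcription regulators had 25 tested probes, with 0 called by limma and a median of -0.03. With an unadjusted p under 0.05, 3 were lower and 0 higher, against 2.76% and 2.3% of all tested probes. The 3 were both probes of Btg2, an antiproliferative gene induced by p53, and Id1, an inhibitor of basic helix-loop-helix factors. The Btg2 probes averaged -0.38 ± 0.38 and -0.33 ± 0.30 (SD, n = 14 each), each below 0 on 12 of 14 arrays, and Id1 averaged -0.33 ± 0.38 (SD, n = 14), below 0 on 10. The 2 Btg2 probes resembled each other in both orientations, at -0.24 and -0.30 on Cy5 arrays and at -0.52 and -0.36 on Cy3 arrays. The adjusted p was 0.895 for each.

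Early feedback and secreted genes had 24 tested probes, with 0 called by limma and a median of 0.08. With an unadjusted p under 0.05, 2 were higher and 1 lower, against 2.3% and 2.76% of all tested probes. Rgs2, which shortens signals of G protein-coupled receptors, averaged 0.90 ± 1.04 (SD, n = 11) and lay above 0 on 9 of 11 arrays. Plk2, an early-induced kinase, averaged 0.32 ± 0.43 (SD, n = 14), above 0 on 11. Nfkbia, the inhibitor that NF-kappa-B induces against itself, averaged -0.38 ± 0.60 (SD, n = 14), below 0 on 10. None passed (adjusted p = 0.895 each).

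Genes with described AP-1 sites were the only one of these lists outside the cell type markers with a called probe. This list was chosen with earlier results of these data known. Of 14 tested probes 1 fell and 13 did not pass, against 0.0324% of all tested probes called. With an unadjusted p under 0.05, 2 were lower and 0 higher, against 2.76% and 2.3% of all tested probes. The median was -0.14, and the lowest mean, -1.78, belonged to a probe that was not called. The called gene was Mmp13, collagenase 3, at -1.64 ± 0.59 (SD, n = 14), lower on 14 of 14 arrays (limma, adjusted p = 0.000827). The call was lost with robust, trended eBayes (adjusted p = 0.382) and on Cy5 arrays (0.512) or Cy3 arrays (0.533) alone, and with Cy3 arrays turned (0.992), but held without any 1 array (0.00146 to 0.00411). Its means of -1.63 on Cy5 arrays and -1.65 on Cy3 arrays differed by less than the spread between arrays.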

How the data were processed

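Values for 20355 probes on 14 arrays were deposited as log2 ratios between channels. The unit was read from the values, whose most frequent steps are log2 ratios of small whole numbers displaced by 1 shift per array. No source used here names the scanner, background correction, normalization or genome build. Per the labels' protocols, total RNA was labelled indirectly with Cy3 or Cy5.

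Coded extremes (absolute value above 12, 91 to 315 per array) were set to missing and arrays were then median-centred. The 18503 probes measured on 10 or more arrays, 4 or more per orientation, were tested with limma 3.58.1 in R 4.3.3 (lmFit, eBayes, intercept and dye term coded +1 and -1, Benjamini-Hochberg over all tested probes, called at an adjusted p below 0.05), which was checked on simulated data. The difference between orientations is 2 times the dye coefficient. Ratios of whole numbers up to 10 were matched within 0.0011 log2 units. The number of arrays limits the precision, and the ratios carry no spot intensity.

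Symbols came from GEO's platform annotation (14030 probes with 1 symbol, 5 with several). Members, lists and alternatives were chosen with earlier results of these data known. Named beside the members were called list genes or else the 3 smallest p values of a list, the 5 genes most like Nr4a3 and the 5 next dye terms. Lists were matched by symbol.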

Additional observations from a re-analysis of the deposited data

Results flagged for a closer look

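Nr4a3 was flagged because its ratios pointed in opposite directions in the 2 dye orientations, below 0 on all 6 measured arrays with the knockout in Cy5 and above 0 on all 7 with it in Cy3, a difference of -3.35. The gene was chosen by this value, so the p of its dye term is no independent test of the difference.

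Among 62 sets of arrays of 1 probe and 1 orientation, 6 held an array far from the others, where chance alone flags about 1 in 20. With the knockout in Cy5, Nr4a3 stood at -2.40 on replicate 4 (others -1.33 to -0.74), Fosb at 4.23 on replicate 9 (others -0.51 to 0.51) and Jun probe 3296 at -1.80 on replicate 7 (others -0.45 to 0.38). In the same orientation Mapk9 stood at 4.69 on replicate 4 (others -0.21 to 1.05) and Ncoa2 probe 12960 at -2.52 on replicate 4 (others -0.68 to 0.20). With the knockout in Cy3, Egr1 stood at 2.55 on replicate 11 (others -0.95 to -0.54). The outlying values of Nr4a3 and Jun probe 3296 were ratios of small whole numbers, and those of Fosb and Egr1 were not.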

How the results depend on the processing

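The counts were recomputed under 28 alternatives, 14 of which left out 1 array. For the mean ratio the 6 calls became 4 to 8 without 1 array, 11 for probes complete on 14 arrays, 11 without small whole-number ratios, 16 when blocking on replicate number ranges (1 to 6, 7 to 12, 13 to 14, which are no labelled groups), 0 under a robust, trended eBayes (604 unadjusted), 0 on Cy5 arrays alone (1031) and 0 on Cy3 arrays alone (1219), and 1 with the Cy3 arrays turned. Among the alternatives run, no tested immediate early probe was called for the mean ratio except under the turned arrays, where 1 was, Nr4a3, at -1.67; this exchanges mean and dye term, so that the difference became 0.68. For the dye term the 1 call became 0 to 4 without 1 array (0 for 11 of 14), 6 with turned arrays, 4 with the probes of a gene averaged, and 0 with values on all 14 arrays (where Nr4a3 was not tested), robust, trended eBayes (1395 unadjusted), small whole-number ratios missing, a random block of number range and dye, the fixed block, or the neighbour median within 25 or 10 numbers subtracted. The Nr4a3 difference itself was -3.64 to -3.14 without 1 array. Of 360 recomputed means and differences of the tested immediate early probes, 351 moved by less than 1 SD (over all arrays for a mean, pooled within orientations for a difference). By the wider SD over all arrays this includes the Nr4a3 mean of -1.34 on Cy5 arrays alone and 2.01 on Cy3 arrays alone, against 0.34 on both. Of the other 9, 7 were under turned arrays and 2 were the Nr4a3 difference after subtraction of neighbours. The cause was not tested. The ratio already pairs both genotypes within each array. No paired analysis was possible because beyond that there is 1 group of arrays and no second group shares its numbers. Missing values limit Fos, Egr1, Junb and Jun probe 20296.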
